A study of Mus musculus with 8 samples.

Results

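The integrated stress response was described here through 10 genes: Eif2ak3, Atf4, Ddit3, Atf3, Trib3, Asns, Chac1, Sesn2, Ppp1r15a and Nupr1. They were chosen by name, as the rows of the count table whose GENCODE M21 symbol is one of these, which gave 11 of 55450 identifiers because Ddit3 has a second one. The livers came from mice that all received an ethanol diet: 4 carried AAV-H19 (libraries 25 to 28), an adeno-associated virus named for the imprinted long non-coding RNA H19, and 4 carried the comparison virus AAV-Null (libraries 21 to 24). The sources used here do not state the strain, age, dose, length of feeding, promoter of the virus or insert of AAV-Null. The study's title names alternative splicing and methionine metabolism in alcohol-associated liver disease, and the comparison of the viruses asks which RNAs differ in ethanol-fed liver when H19 is delivered.

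The integrated stress response lowers general protein synthesis when a cell meets stress. PERK (encoded by Eif2ak3), a kinase in the endoplasmic reticulum membrane, phosphorylates the initiation factor eIF2 when unfolded proteins accumulate, and ATF4 is then translated more efficiently although most mRNAs are translated less. ATF4 activates genes of amino acid supply and, through CHOP (encoded by Ddit3) and ATF3, genes of stress adaptation and cell death; in liver, ethanol, protein overload and amino acid shortage are known triggers. Because ATF4 is controlled mainly in translation, and PERK by phosphorylation, mRNA levels do not measure the activity of either protein.

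H19 was at 104 to 155 CPM (count units per M units of the scaled library total, where M is 1e+06) in the 4 AAV-H19 libraries and at 0.142 to 1.41 CPM in the 4 AAV-Null libraries, so each library matched its label. The libraries held 63.7 M to 83 M estimated count units. Hepatocyte markers were abundant in all 8 libraries. Their sum over 8 genes ranged from 79200 to 115000 CPM in the AAV-Null livers, and in AAV-H19 livers from 113000 to 124000 CPM. Albumin (Alb) made up most of this sum, with group means of 89100 (AAV-H19) and 71300 (AAV-Null) CPM and overlapping ranges. Of the 8 genes, 5 had fitted changes above 0 and 3 below (Ttr, Apoa1 and Cyp3a11). Hnf4a alone passed the edgeR test, and 0 did with the length offset, so the sum does not stand for the whole list. Macrophage markers were lower in AAV-H19 livers, at 173 to 242 CPM against 308 to 471 CPM summed over 11 genes (exact two-sided permutation p = 0.0286, n = 4 each, the smallest that 70 assignments allow), and 7 of the 11 passed the edgeR test, or 2 with the length offset described next. Lymphocyte markers were at 1.55 to 1.77 CPM against 2.73 to 4.34 CPM summed over 12 genes (exact permutation p = 0.0286). These sums are near the floor, with the highest single value at 0.821 CPM (Cd79b in AAV-Null 22). Of the 7 tested, 2 had fitted changes above 0 and 5 below, and 1 passed, or 0 with the length offset. The same permutation test gave p = 0.0286 for pancreas and 0.0571 for hepatocyte, neutrophil and stellate markers. For endothelial and cholangiocyte markers it gave 0.229 and 0.257, and no p was adjusted for the number of lists. Of 5 pancreas markers, Prss1, Cpa1, Amy2a5 and Ins2 were at 0 in all 8 libraries, and the elastase gene Cela1 was at 10.9 to 25.5 CPM in the AAV-Null livers and 6.41 to 8.31 CPM in AAV-H19 livers (log2 change -1.06 ± 0.29, edgeR adjusted p = 0.0453, and adjusted p = 0.173 with the length offset). In bulk tissue, fewer cells of a type and less RNA per cell cannot be told apart. Long transcripts read relatively higher in AAV-H19 libraries: the rank correlation (Spearman's rho) of a library's deviation from the gene mean with transcript length, taken across protein-coding genes that are no independent replicates, was 0.218 to 0.449 in AAV-H19 and -0.413 to -0.122 in AAV-Null. The calls below are therefore given also from a fit in which each library's length trend was taken out as an offset.

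Of the 10 genes, Eif2ak3 and Sesn2 were higher and Nupr1 was lower in AAV-H19 livers, and the other 7 did not pass the test (quasi-likelihood test of edgeR over 16672 genes, with the Benjamini-Hochberg adjusted p under 0.05). Over all genes tested, 11.7% passed in either direction, 5.6% higher and 6.07% lower. The groups did not overlap in 3 of the 10, the same genes that passed, beside 23.7% of all genes tested. The median log2 fold change of the 10 was 0.1, with 5 values above 0 and 5 below, and that of all genes was -0.02. With the length offset Eif2ak3 alone passed in edgeR, beside 1.41% of all genes higher, and none of the 10 was lower, beside 0.804%, with 2.21% of all genes called in either direction; Nupr1 was the 1 gene lower at an unadjusted p under 0.05 in that fit. DESeq2 and limma-voom each called 3 of the 10 higher and 1 lower, adding Chac1. Leaving out 1 AAV-H19 liver lowered the calls over all genes to between 0.502% and 2.17% higher and between 0.158% and 1.91% lower, from 5.6% and 6.07%; the losses of calls in those fits that are given for single genes stand beside this drop. Of all genes, DESeq2 called 9.84% higher and 12.1% lower, or 21.9%, and limma-voom 6.29% higher and 4.91% lower, or 11.2%.

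**Figure D1:**
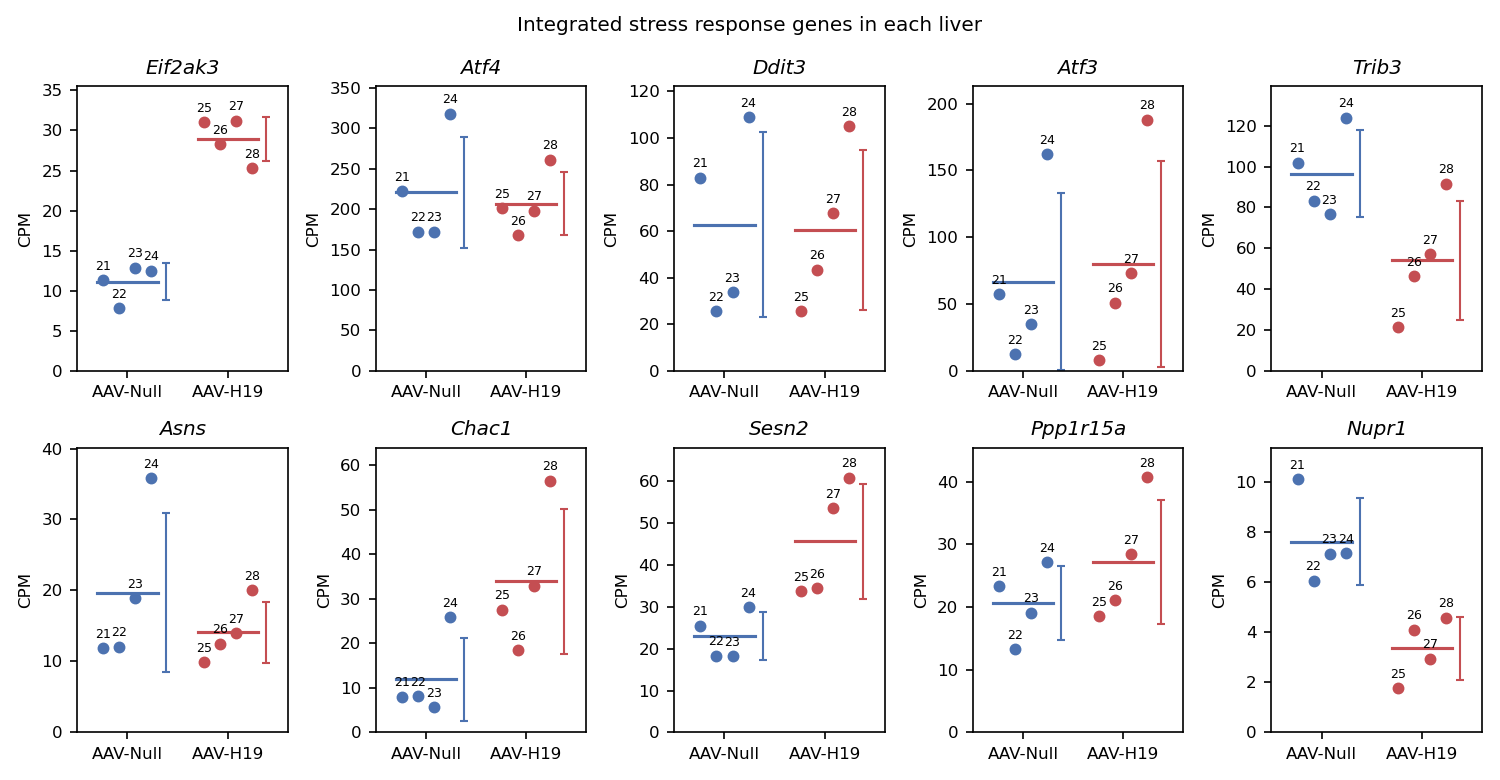
CPM (vertical axis, linear from 0) of the 10 genes in each AAV-Null (blue) and AAV-H19 (red) liver, with library numbers; horizontal lines are group means and error bars 1 SD (n = 4). Eif2ak3, Sesn2 and Nupr1 are the genes whose groups do not overlap, and AAV-Null 24 and AAV-H19 28 are the highest of their groups in 8 and 9 of the 10 genes.

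The kinase gene Eif2ak3 was at 11.3, 7.8, 12.9 and 12.5 CPM in AAV-Null 21 to 24 and at 31.0, 28.3, 31.2 and 25.3 CPM in AAV-H19 25 to 28. Every AAV-H19 liver was above every AAV-Null liver, and the lowest of all was AAV-Null 22. The mean rose from 11.1 ± 2.31 to 29.0 ± 2.74 CPM (SD, n = 4 each), a log2 fold change of 1.38 ± 0.19 (SE, 95% interval 0.95 to 1.81, edgeR adjusted p = 0.00707). With each library left out in turn the log2 change was 1.24 to 1.45 and the adjusted p at most 0.0364, and with the length offset it was 1.13 ± 0.16 (edgeR adjusted p = 0.0138). The gene (ENSMUSG00000031668) is at chr6:70844515-70905245 on the plus strand (GRCm38), and its longest annotated transcript is 4513 nt. Its neighbours within the same span, Gm43292 and Gm23346, were at most at 0.295 CPM and at 0 CPM.

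Among 11261 other genes with an established symbol and a mean CPM of 1 or more, those whose standardised log2 CPM profile over the 8 livers lay nearest to Eif2ak3 were Atp2b1, Trak1 and Atp2a2, at root mean square distances of 0.0996, 0.103 and 0.113 SD. Atp2a2, which encodes the calcium pump of the endoplasmic reticulum, was at 113 ± 27 CPM in the AAV-Null livers and 287 ± 33.6 CPM in AAV-H19 livers. Atp2b1, a calcium pump of the plasma membrane, was at 16.4 ± 2.09 and 30.1 ± 2.47 CPM, and Trak1, an adaptor that links mitochondria to motor proteins, at 13.9 ± 2.55 and 32.1 ± 4.2 CPM. These genes were picked for likeness to a profile that separates the groups, so their difference between the groups is a description. Their transcripts are 5363 to 7130 nt long. The edgeR log2 change was 0.87 for Atp2b1, 1.21 for Trak1 and 1.35 for Atp2a2. Over the 10 alternatives that kept all 8 libraries, the length offset among them, it was 0.37 to 0.88, 0.85 to 1.21 and 0.96 to 1.38. Atp2b1 passed in 9 of these 10, all except the length offset (edgeR adjusted p = 0.199), and Trak1 and Atp2a2 in all 10. With 1 library left out, Atp2b1 passed in 5 of 8 fits, and Trak1 and Atp2a2 in 7 of 8 each.

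Downstream of the kinase, the mRNA of Atf4, the transcription factor of the pathway, did not differ beyond its spread. Atf4 was at 222, 172, 172 and 318 CPM in AAV-Null 21 to 24 and at 201, 168, 198 and 261 CPM in AAV-H19 25 to 28, so the groups overlapped. Its log2 change was -0.09 ± 0.24 (SE, 95% interval -0.62 to 0.43, edgeR adjusted p = 0.827), and 0.05 with the length offset. Atf4 (ENSMUSG00000042406) is at chr15:80255184-80257541 on the plus strand. Per kilobase of the longest transcript and over all 8 livers, Atf4 was the most abundant of the 10 at 106 CPM per kb, followed by Ddit3 at 63.6, Trib3 at 37.2, Atf3 at 37.0, Chac1 at 14.0, Sesn2 at 9.87, Ppp1r15a at 8.52, Asns at 8.38, Eif2ak3 at 4.44 and Nupr1 at 2.23 CPM per kb. Eif2ak3 was at 2.47 CPM per kb in the AAV-Null livers, below Nupr1 at 3.1, and at 6.42 CPM per kb in the AAV-H19 livers, above Nupr1 at 1.37. The length used for Nupr1 was 2449 nt, although its RefSeq start lies 5391 bases inside the gene. A shorter transcript would give higher values per kb for Nupr1, so its place in the order is given for that length.

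Ddit3 and Atf3, the transcription factors that act with and after ATF4, varied more within each group than between the groups. Ddit3 was at 82.9, 25.7, 33.9 and 109 CPM in AAV-Null 21 to 24 and at 25.7, 43.4, 67.7 and 105 CPM in AAV-H19 25 to 28. Atf3 was at 57.4, 12.6, 35.1 and 162 CPM in the AAV-Null livers and at 8.09, 51.0, 73.1 and 188 CPM in AAV-H19, so 1 liver of each group was far above its other 3. The log2 change was -0.05 ± 0.52 for Ddit3 (SE, 95% interval -1.21 to 1.1, edgeR adjusted p = 0.956). For Atf3 it was 0.26 ± 0.87 (95% interval -1.69 to 2.21, edgeR adjusted p = 0.871). After the length offset the values were 0.38 and 0.4. The highest AAV-Null liver exceeded the lowest by 12.8-fold in Atf3 and 4.22-fold in Ddit3, and in AAV-H19 livers by 23.2-fold and 4.09-fold; the median of this ratio over 12657 genes of at least 1 CPM was 1.91 in the AAV-Null livers and 1.41 in AAV-H19. The sign of both genes rested on single libraries, with the widest shifts from 2 of them: without AAV-Null 24 the log2 changes of Ddit3 and Atf3 were 0.35 and 1.19, and without AAV-H19 28 they were -0.46 and -0.6.

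Atf3 (ENSMUSG00000026628) is at chr1:191170296-191218039 on the minus strand. The values of Ddit3 are those of ENSMUSG00000025408, on the plus strand of chromosome 10 at 127290774 to 127296288. The second identifier with this symbol, ENSMUSG00000116429, shares exons on the same strand, has a transcript of 105 nt and was listed at 1 unit in each of the 8 libraries, so it did not pass the filter on low counts. The transfer RNA synthetase gene Mars lies on the opposite strand over the same span. How strand was treated in counting is not stated in the sources used here, so reads of the genes could be mixed where they overlap; Mars was at 55.2 to 76.1 CPM in the 8 livers and had a fitted log2 change of -0.07 ± 0.15 (by edgeR, adjusted p = 0.778).

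The highest liver of each group was the same across most of the 10 genes. AAV-Null 24 was the highest AAV-Null liver in Atf4, Ddit3, Atf3, Trib3, Asns, Chac1, Sesn2 and Ppp1r15a, 8 of the 10, and in 21.4% of all genes tested. AAV-H19 28 was the highest AAV-H19 liver in 9 of the 10, all except Eif2ak3, and in 29.2% of all genes tested. In Atf3 these livers lay 1.79 and 2.0 above the mean of the 8 libraries on the log2 scale, whereas the deviation of AAV-H19 25 was -2.53. AAV-H19 25 was the lowest AAV-H19 liver in 7 of the 10 genes and AAV-Null 22 the lowest AAV-Null liver in 6. How often these livers were the lowest over all genes tested was not computed, so the counts of lowest livers have no background beside them. Eif2ak3 did not share the pattern: AAV-H19 28 was its lowest AAV-H19 liver.

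**Figure D2:**
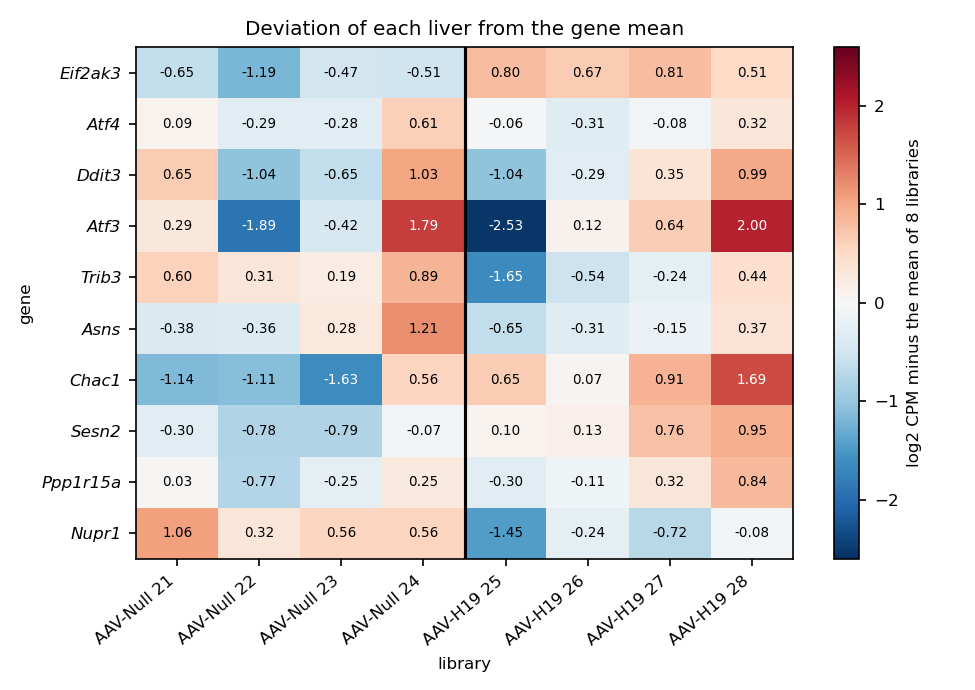
Log2 CPM of each gene (rows) in each liver (columns) minus that gene's mean over the 8 libraries; the black line separates AAV-Null from AAV-H19, red is above and blue below the mean. AAV-Null 24 and AAV-H19 28 are red in most rows, at 1.79 and 2.0 for Atf3. The rows of Eif2ak3 (top), Sesn2 and Nupr1 change sign at the line.

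The profile nearest to Ddit3 over the 8 livers was that of Gdf15, which encodes a stress-induced hormone and is a known target of CHOP and ATF4, at a root mean square distance of 0.234 SD. Gdf15 was at 77.3, 18.8, 39.9 and 135 CPM in AAV-Null 21 to 24 and at 19.2, 39.0, 91.2 and 98.9 CPM in AAV-H19 25 to 28. Its highest and lowest liver in each group were those of Ddit3. The next were Maff, a small MAF transcription factor, and Tspan2, a tetraspanin, at 0.267 and 0.268 SD.

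Of the 10 promoters, 5 hold the C/EBP-ATF response element, the sequence through which ATF4 dimers with C/EBP proteins are known to bind. The windows below are from RefSeq promoters of GRCm38.p6, each 250 bases before to 50 bases after the annotated start. All 10 genes had one. Its start is that of the GENCODE gene in Eif2ak3, Atf4 and Ppp1r15a, lies 13 to 45 bases inside the gene in Chac1, Ddit3, Asns and Sesn2, 5391 bases inside in Nupr1 and 34706 bases inside in Atf3, and is outside the gene in Trib3. The element was searched as TGATGNAA on both strands and is held by 3.97% of 32851 promoters of that length. The windows are shown because they let the ATF4-type element be compared between genes that did and did not pass; the element is in capitals, with 12 bases on each side, in the direction of transcription.
Asns (chr6:7693213-7693244, minus strand): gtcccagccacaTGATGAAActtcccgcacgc
Atf3 (chr1:191183424-191183455, minus strand): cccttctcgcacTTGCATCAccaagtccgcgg
Chac1 (chr2:119351037-119351068, plus strand): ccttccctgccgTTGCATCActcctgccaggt
Nupr1 (chr7:126625561-126625592, minus strand): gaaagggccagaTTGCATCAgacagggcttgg
Trib3 (chr2:152344027-152344058, minus strand): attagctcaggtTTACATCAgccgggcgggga

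In Asns the element reads along the gene, and in the other 4 it lies on the opposite strand. It lies at positions -23 to -16 in Asns, -110 to -103 in Atf3 and in Nupr1, -193 to -186 in Chac1 and 15 to 22 in Trib3, where 1 is the annotated start. Of these 5 genes Nupr1 was lower and the other 4 did not pass, and Eif2ak3 and Sesn2, which were higher, hold no exact match in the window. Ppp1r15a instead holds the cAMP response element TGACGTCA at -12 to -5, as do 1.79% of all promoters. None of the 10 holds an exact match to the full endoplasmic reticulum stress element, a CCAAT box and a CCACG box at their usual spacing, which 0.119% of all promoters hold. Only exact matches were counted for each motif, and variants were not searched for across the promoters. For example, the Ddit3 promoter holds both boxes at that spacing on the opposite strand with 1 base changed. The Sesn2 promoter holds tcatgcaa, which differs from TGATGNAA by 1 base. A match is a run of letters and not a measured binding site.
Ppp1r15a (chr7:45526261-45526292, minus strand): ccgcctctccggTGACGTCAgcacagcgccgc

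The full promoters of Eif2ak3, the gene of the 10 with the smallest p, and of Chac1, the gene with the highest fitted change of the 10, are given for comparison. That of Eif2ak3 holds none of the 3 motifs, and in that of Chac1 the C/EBP-ATF element is in capitals.
Eif2ak3 (chr6:70844265-70844564, plus strand): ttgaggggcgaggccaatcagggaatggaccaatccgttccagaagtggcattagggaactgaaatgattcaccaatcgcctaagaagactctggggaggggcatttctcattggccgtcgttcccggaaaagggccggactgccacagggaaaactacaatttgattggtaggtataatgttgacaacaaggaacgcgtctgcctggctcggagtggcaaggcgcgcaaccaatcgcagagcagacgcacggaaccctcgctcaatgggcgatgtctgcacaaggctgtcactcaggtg
Chac1 (chr2:119350992-119351291, plus strand): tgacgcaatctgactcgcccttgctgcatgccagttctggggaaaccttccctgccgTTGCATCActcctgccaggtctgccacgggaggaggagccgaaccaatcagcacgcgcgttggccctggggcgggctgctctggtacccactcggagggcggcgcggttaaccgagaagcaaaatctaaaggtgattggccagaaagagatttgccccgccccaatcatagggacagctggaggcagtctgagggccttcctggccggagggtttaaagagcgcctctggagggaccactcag

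Chac1 had the highest fitted change of the 10 genes and did not pass in the edgeR fit. Chac1, which degrades glutathione, was at 8.0, 8.17, 5.7 and 25.9 CPM in AAV-Null 21 to 24 and at 27.6, 18.5, 33.0 and 56.6 CPM in AAV-H19 25 to 28. The groups overlapped through AAV-Null 24, which was above AAV-H19 26. Chac1 (ENSMUSG00000027313) is at chr2:119351229-119354381 on the plus strand. The log2 change was 1.51 ± 0.50 (SE, 95% interval 0.38 to 2.63, edgeR adjusted p = 0.0778). It passed with DESeq2 (adjusted p = 0.016) and limma-voom (adjusted p = 0.0477). With 1 library left out in turn the log2 change was 1.14 (without AAV-H19 28, edgeR adjusted p = 0.183) to 2.22 (without AAV-Null 24, adjusted p = 0.0223), and it passed in the latter fit alone; with the length offset it was 1.75 ± 0.50 (edgeR adjusted p = 0.0859).

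Sesn2, a stress-induced inhibitor of mTORC1 signalling, rose from 23 ± 5.73 to 45.6 ± 13.7 CPM (SD, n = 4 each). It was at 25.5, 18.3, 18.2 and 29.9 CPM in AAV-Null 21 to 24 and at 33.7, 34.4, 53.5 and 60.8 CPM in AAV-H19 25 to 28. Every AAV-H19 liver was above every AAV-Null liver, with AAV-Null 24 and AAV-H19 25 the nearest to each other. Sesn2 (ENSMUSG00000028893) is at chr4:132492032-132510501 on the minus strand. The log2 change was 0.99 ± 0.26 (SE, edgeR adjusted p = 0.0391). The call held without AAV-Null 24 (adjusted p = 0.0416) and ended when any other library was left out, with log2 changes of 0.82 to 1.11 and adjusted p of up to 0.122 in edgeR. After the length offset it was 0.9 ± 0.26 (edgeR adjusted p = 0.0895).

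Nupr1, a small chromatin-associated protein induced by stress, fell, and every AAV-H19 liver was below every AAV-Null liver. It was at 10.1, 6.04, 7.13 and 7.14 CPM in AAV-Null 21 to 24 and at 1.77, 4.1, 2.94 and 4.58 CPM in AAV-H19 25 to 28. The mean was 7.6 ± 1.73 CPM in the AAV-Null livers and 3.35 ± 1.26 CPM in AAV-H19 (SD, n = 4 each), a log2 change of -1.18 ± 0.31 (SE, edgeR adjusted p = 0.0397). The call held without AAV-Null 22 (adjusted p = 0.0358) and ended when any other library was left out, with log2 changes of -1.37 to -0.97 and adjusted p of up to 0.124 in edgeR. After the length offset the log2 change was -1.13 ± 0.30 (edgeR adjusted p = 0.0743). That offset took the length of the longest annotated transcript, 2449 nt, whereas the RefSeq start lies 5391 bases inside the gene. The offset for a shorter transcript of Nupr1 was not tested. Nupr1 (ENSMUSG00000030717) is at chr7:126623249-126630861 on the minus strand. Macrophage markers were lower in the same livers, at 173 to 242 CPM against 308 to 471 CPM in sum. Sums of lymphocyte markers were also lower but near the floor, at 1.55 to 1.77 CPM against 2.73 to 4.34 CPM. The part of either cell type in the value of Nupr1 was not tested.

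Trib3, a pseudokinase that restrains ATF4 and CHOP, and Asns, the asparagine synthetase gene, had negative fitted changes that did not pass. Trib3 was at 102, 83.3, 76.7 and 124 CPM in AAV-Null 21 to 24 and at 21.4, 46.4, 57.1 and 91.6 CPM in AAV-H19 25 to 28, and the groups overlapped only through AAV-H19 28. The fitted log2 change was -0.83 ± 0.37 (SE, 95% interval -1.66 to -0.01, edgeR adjusted p = 0.165), -0.57 without AAV-H19 25 and -1.21 without AAV-H19 28. Asns was at 11.9, 12.1, 18.9 and 35.8 CPM in the AAV-Null livers and at 9.86, 12.5, 14.0 and 20 CPM in AAV-H19, where AAV-Null 24 alone was above all AAV-H19 livers. The log2 change of Asns was -0.48 ± 0.37 (95% interval -1.31 to 0.34, edgeR adjusted p = 0.419), and -0.02 without AAV-Null 24.

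Ppp1r15a, which encodes GADD34, the phosphatase subunit that reverses eIF2 phosphorylation, did not pass. It was at 23.3, 13.3, 19.1 and 27.1 CPM in AAV-Null 21 to 24 and at 18.5, 21.1, 28.4 and 40.7 CPM in AAV-H19 25 to 28, with overlap between the groups. Its log2 change was 0.39 ± 0.29 (SE, 95% interval -0.26 to 1.04, edgeR adjusted p = 0.4).

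**Figure D3:**
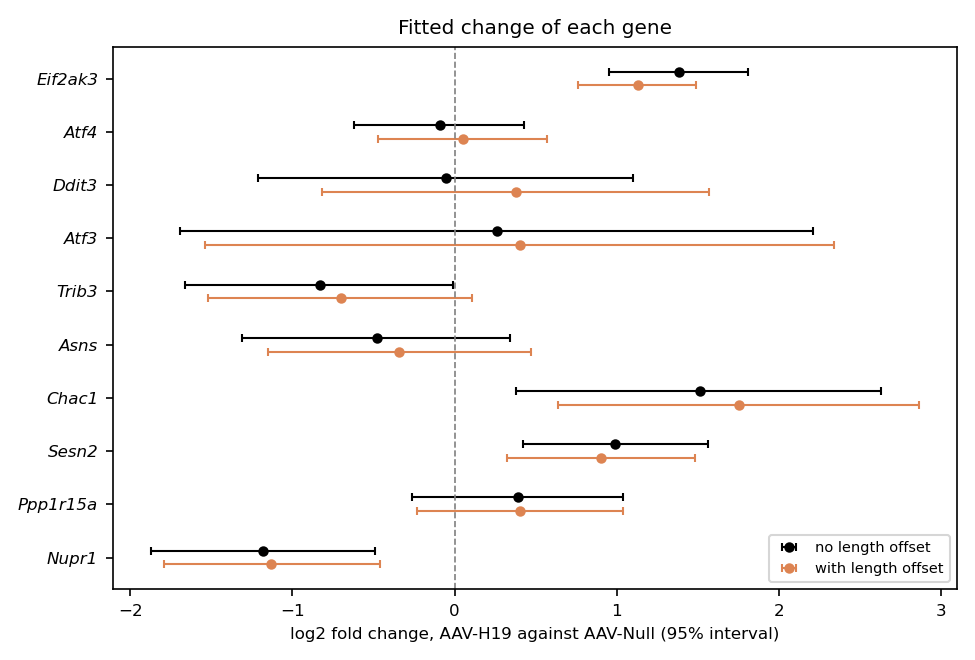
Log2 fold change of each gene in AAV-H19 against AAV-Null livers (horizontal axis) with its 95% interval, from the edgeR fit without (black) and with (orange) an offset for transcript length. The intervals of Eif2ak3, Chac1, Sesn2 and Nupr1 exclude 0 in both fits before adjustment over all genes, and those of Atf4, Ddit3, Atf3, Asns and Ppp1r15a include it; that of Trib3 includes it with the offset alone.

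The wider pathway was read from 6 lists of 88 other genes, all of which were tested. In these, 7 genes were higher, or 7.95% beside 5.6% of all genes, none was lower beside 6.07%, and the other 81 did not pass (edgeR). At an unadjusted p under 0.05, 23 were higher and 5 lower, or 31.8% beside 29.8% of all genes. DESeq2 called 17 higher and 4 lower, or 23.9% beside 21.9% of all genes, and limma-voom 9 and 0, or 10.2% beside 11.2%. With both directions joined, these shares are near those of all genes. By direction the calls leaned higher: DESeq2 gave 17 higher and 4 lower, whereas of all genes 9.84% were higher and 12.1% lower. The lean was not tested. Under upper-quartile scaling, in which the median over all genes shifted from -0.02 to -0.13 on the log2 scale, edgeR gave 4 higher and 3 lower. With the length offset 1 was higher, Slc6a9, and none was lower, against 12 and 6 at an unadjusted p under 0.05, or 20.5% beside 22.3% of all genes. The median log2 change of the 88 was 0.08, with 48 positive and 40 negative. In edgeR, without AAV-H19 25, 26 or 27 none of the 88 was higher, beside 0.749%, 1.2% and 0.502% of all genes in those fits. Without AAV-H19 28 there was 1, beside 2.17% of all genes, and without AAV-Null 21 there were 4, beside 4.8%.

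Among 13 genes of eIF2 kinases and the eIF2 and eIF2B complexes, Eif2ak2 rose and the other 12 did not pass. Eif2ak2, which encodes PKR, the kinase activated by double-stranded RNA, was at 4.37 to 9.54 CPM in the AAV-Null livers and at 10.1 to 15.0 CPM in AAV-H19 livers, without overlap. Its log2 change was 0.88 ± 0.25 (SE, edgeR adjusted p = 0.0488). The call ended with DESeq2 size factors (adjusted p = 0.051), upper-quartile scaling, no filter and the length offset (log2 change 0.65, adjusted p = 0.149), and when any library except AAV-Null 24 was left out, with adjusted p of up to 0.136 in edgeR. Eif2ak4, the kinase GCN2 that senses uncharged transfer RNA, was at 5.31 ± 0.71 CPM in the AAV-Null livers and 8.47 ± 1.56 CPM in AAV-H19 (SD, n = 4 each). Its log2 difference of 0.67 ± 0.20 did not pass in edgeR (adjusted p = 0.0535), and was 0.31 with the length offset. It passed with DESeq2 (adjusted p = 0.015) and with values divided by 4 (edgeR adjusted p = 0.048). In all 4 eIF2 kinase genes (Eif2ak1 to Eif2ak4) the AAV-H19 livers were above the AAV-Null livers without overlap, as in 12.1% of all genes tested. The kinase genes were set together after their values were seen, and their longest transcripts are 4313 to 5298 nt. Eif2s1, the subunit of eIF2 that these kinases phosphorylate, had a fitted log2 change of -0.5 ± 0.25 (by edgeR, adjusted p = 0.206).

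Among 17 feedback regulators and transcription partners, Atf6 and Trib1 rose and the other 15 did not pass. Trib1, a pseudokinase related to Trib3, was at 45.3, 35.8, 37.3 and 69.3 CPM in AAV-Null 21 to 24 and at 82.1, 79.9, 130 and 143 CPM in AAV-H19 25 to 28, so its groups were apart while those of Trib3 overlapped. For Trib1 the log2 change was 1.21 ± 0.28 (SE, edgeR adjusted p = 0.0295), and 0.97 with the length offset (adjusted p = 0.0967). Atf6, the sensor of another arm of the unfolded protein response, had a fitted log2 change of 0.69 ± 0.15 (by edgeR, adjusted p = 0.0265), and 0.2 with the length offset (adjusted p = 0.477). Both calls ended without any 1 of the 4 AAV-H19 livers, with adjusted p of up to 0.0908 for Atf6 and 0.0991 for Trib1 in edgeR. Dnajc3, a co-chaperone that inhibits PERK, was at 193 to 250 CPM in the AAV-Null livers and 275 to 300 CPM in AAV-H19 (log2 change 0.44 ± 0.15, edgeR adjusted p = 0.0825, and 0.07 with the length offset). Dnajc3 passed with DESeq2 (adjusted p = 0.0371). The C/EBP genes Cebpb and Cebpg, whose products pair with ATF4, had log2 changes of -0.03 ± 0.37 and -0.21 ± 0.21 (edgeR adjusted p = 0.969 and 0.546).

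Of 36 genes of amino acid supply in 3 lists, the best known program of ATF4, 3 were higher and 0 lower in edgeR, or 8.33% higher beside 5.6% of all genes, a share near the background. Of 12 genes of amino acid and one-carbon synthesis, Cbs rose and the other 11 did not pass. Cbs, the first enzyme that turns homocysteine towards cysteine, was at 68.9 to 139 CPM in AAV-Null livers and at 182 to 214 CPM in AAV-H19 livers, without overlap. Its log2 change was 0.81 ± 0.22 (SE, adjusted p = 0.0417 by edgeR), and 0.38 after the length offset (adjusted p = 0.243). The call held without AAV-Null 22 or 23 and ended without any other library, with adjusted p of up to 0.126. It also ended in edgeR with upper-quartile scaling (adjusted p = 0.0628). Psat1 and Phgdh, enzymes of serine synthesis, were at 25.2 ± 13.9 and 1.36 ± 1.28 CPM in the AAV-Null livers and at 16.2 ± 7.02 and 0.595 ± 0.288 CPM in AAV-H19 livers (SD, n = 4 each), with overlap between the groups in both. Mthfd2, a mitochondrial folate enzyme, had a fitted log2 change of 0.23 ± 0.46 (by edgeR, adjusted p = 0.778).

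Of 10 amino acid transporters Slc6a9 rose and the other 9 did not pass. Slc6a9, the glycine transporter GLYT1, was at 47.9, 21.1, 44.2 and 48.2 CPM in AAV-Null 21 to 24 and at 159, 115, 122 and 81.7 CPM in AAV-H19 25 to 28. The groups were apart, and AAV-Null 22 was the lowest liver. The log2 change was 1.56 ± 0.29 (SE, edgeR adjusted p = 0.0185), and 1.48 with the length offset (adjusted p = 0.0289). The call held in 5 of the 8 fits that left out 1 library, and the adjusted p reached 0.07 in the others. The log2 change of Slc7a11, the cystine transporter, was -1.23 ± 0.72 and that of its partner Slc3a2 0.0 ± 0.22 (edgeR adjusted p = 0.284 and 0.991). Of 14 aminoacyl-tRNA synthetases Tars, for threonine, rose from 61.8 ± 9.9 to 97.4 ± 12.7 CPM, and the other 13 did not pass. The log2 change of Tars was 0.66 ± 0.17 (adjusted p = 0.0396 by edgeR), and 0.46 after the length offset (adjusted p = 0.143). Its call held without AAV-Null 21 or 22 and ended without any other library, with adjusted p of up to 0.11. It also ended in edgeR with upper-quartile scaling (adjusted p = 0.0626) and with no filter (adjusted p = 0.0544).

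Of 22 other targets of ATF4 and CHOP, Wfs1, an endoplasmic reticulum membrane protein, rose and the other 21 did not pass. Wfs1 was at 7.75, 3.76, 12.2 and 8.83 CPM in AAV-Null 21 to 24 and at 29.1, 17.6, 19.9 and 15.9 CPM in AAV-H19 25 to 28, without overlap. Its log2 change was 1.34 ± 0.34 (SE, adjusted p = 0.0363 by edgeR), and 1.22 after the length offset (adjusted p = 0.064). This call held without AAV-Null 22 or 23 and ended without any other library, with adjusted p of up to 0.108. Herpud1, which acts in degradation of endoplasmic reticulum proteins, was at 148 to 409 CPM in the AAV-Null livers and 361 to 950 CPM in AAV-H19 livers and did not pass in edgeR (log2 change 1.28 ± 0.38, adjusted p = 0.0538), but passed with DESeq2 (adjusted p = 0.0099) and limma-voom (adjusted p = 0.0499). Fgf21, a liver hormone induced by ATF4, was at 38.5 to 134 CPM in the AAV-Null livers and 33.2 to 175 CPM in AAV-H19 livers, so that the AAV-Null range lay within the AAV-H19 range (log2 change 0.23 ± 0.49, edgeR adjusted p = 0.791). Ddit4, an inhibitor of mTORC1, had a log2 change of 0.89 ± 0.50, the translation repressor gene Eif4ebp1 one of -0.53 ± 0.23, and the lipoprotein receptor gene Vldlr one of -0.12 ± 0.34 (edgeR adjusted p = 0.268, 0.148 and 0.837). Of the 88 genes, 82 RefSeq promoters were matched and 14 of these, or 17.1%, hold the C/EBP-ATF element TGATGNAA.

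**Figure D4:**
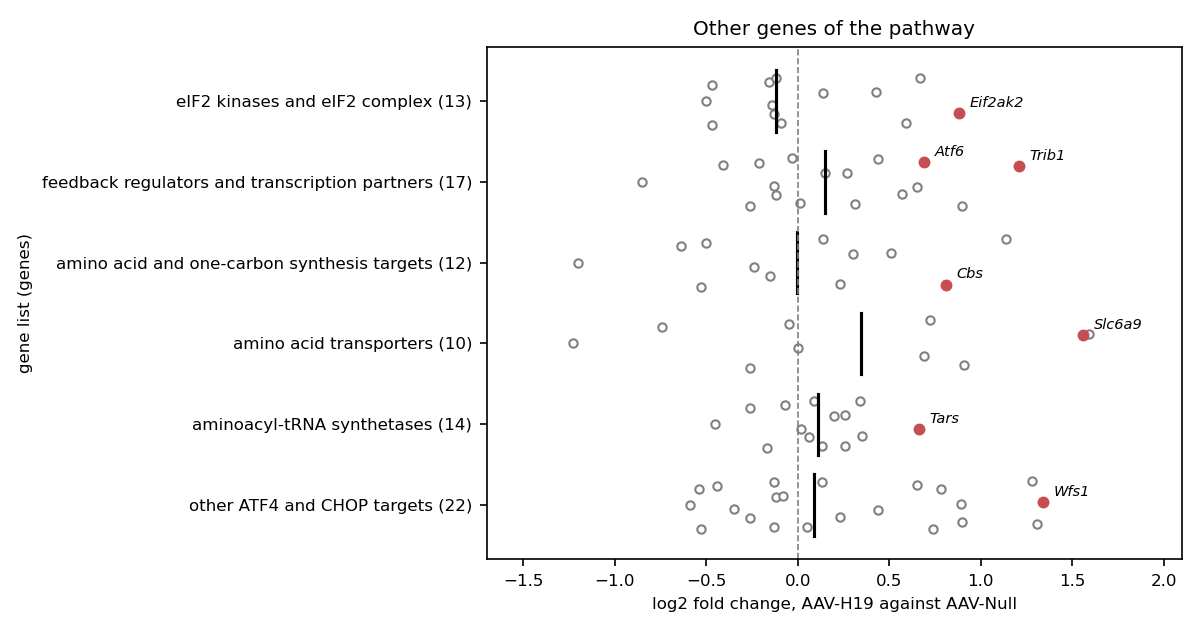
Log2 fold change of the 88 other pathway genes in AAV-H19 against AAV-Null livers (horizontal axis), by list with the number of genes; filled red points passed an edgeR adjusted p of 0.05 and are named, open points did not, and black bars are list medians. All 7 filled points lie above 0, between 0.66 and 1.56, and the list medians lie between -0.12 and 0.34.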

How the data were processed

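Poly(A) RNA of 8 livers was sequenced with a strand-marking kit, per the labels' protocols. HISAT and StringTie are named in the submitters' processing notes, without versions; for the genome build, annotation and counting step the sources used here give nothing. The authors deposited estimated counts (expected counts) per Ensembl gene, all whole numbers, so rounding changed nothing. Low values pile up at multiples of 4, with 820 to 990 genes at 4 units per library against 226 to 285 at 3, so a unit is not a read and the totals overstate the depth. Nothing states whether libraries shared a litter or batch, so the p-values cover only the spread among these samples, which may be technical.

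All 55450 identifiers matched GENCODE M21 (GRCm38), which gave symbols, positions and transcript lengths. filterByExpr of edgeR 4.0.16 (minimum count 10) left 16672 genes, and TMM-scaled libraries were compared with glmQLFit and glmQLFTest in R 4.3.3. The common biological coefficient of variation was 0.389. CPM are counts per M (1e+06) of the TMM-scaled total, and SE is the log2 change over the square root of F. The length offset is a natural spline (5 degrees of freedom) of each library's deviation in log2 CPM from the gene mean on log2 transcript length. Alternatives were DESeq2 1.42.0, limma-voom (limma 3.58.1), other scalings and filters, values divided by 4, overlapping genes summed, totals without H19, and each library left out. The procedure was tested on simulated data. Members, lists and alternatives were chosen with earlier results of these data known. Genes named were the 10, H19, up to 4 calls per list with the smallest p, 16 fixed names and 3 nearest profiles each for Eif2ak3 and Ddit3. Outside this rule, Mars and other overlapping genes, cell type markers, Eif2ak1, Cdkn1a, Got1 and Slc7a2 were named after their values were seen.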

Additional observations from a re-analysis of the deposited data

Results flagged for a closer look

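In 5 of 76 groups of 4 livers, 1 liver lay far from the other 3, with a gap above 0.829 of the group's range; chance gives about 1 in 20. In AAV-Null 24, Chac1 was at 25.9 CPM, and its group otherwise reached from 5.7 to 8.17 CPM. In AAV-Null 22, Atf6 was at 61.0 CPM (82.2 to 83.1 CPM in the other 3), Slc6a9 at 21.1 CPM (44.2 to 48.2 CPM) and Trak1 at 10.1 CPM (14.9 to 15.3 CPM). In AAV-H19 28, Eif4ebp1 was at 93.8 CPM (59.4 to 64.9 CPM in the other 3).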

How the results depend on the processing

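The log2 change of Eif2ak3 stayed between 1.13 and 1.45 and past the threshold under every alternative run. Over all genes, 934 were higher and 1012 lower; upper-quartile scaling gave 1557 lower, DESeq2 1640 higher and 2013 lower, and the length offset 235 and 134. Leaving out 1 library gave 86 to 1023 higher and 27 to 1050 lower. Of the 10 genes, 2 were higher and 1 lower; the length offset gave 1 and 0, and leaving out 1 library 1 to 3 and 0 to 1. Of the 88 wider genes, 7 were higher and 0 lower; upper-quartile scaling gave 4 and 3, a filter of 1 CPM in 4 samples gave 1 lower, DESeq2 17 and 4, the length offset 1 higher, and leaving out 1 library 0 to 8 higher and 0 to 1 lower. Signs turned, without a call, with the length offset in Atf4 (0.05), Ddit3 (0.38), Cebpb (0.26), Gdf15 (0.13) and Slc3a2 (0.01), and with limma-voom in Cebpb (0.04) and Slc3a2 (0.04). They also turned with a library left out, over ranges of -0.22 to 0.14 in Atf4, -0.46 to 0.35 in Ddit3, -0.6 to 1.19 in Atf3, -0.23 to 0.43 in Cebpb, -0.15 to 0.52 in Fgf21, -0.45 to 0.46 in Gdf15, -0.18 to 0.51 in Mthfd2, -0.19 to 0.1 in Slc3a2, -0.49 to 0.05 in Vldlr, -0.21 to 0.63 in Maff and -0.23 to 0.05 in Tspan2. The cause was not tested, apart from the 7 libraries left by such fits. No paired analysis was possible because the libraries of the 2 groups share no number in the labels. The estimated counts limit the precision of the low genes, such as Phgdh and Slc7a11.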

Other observations

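In 3 other pathway genes, chosen after their values were seen and for this pattern, AAV-Null 24 stood nearest to the AAV-H19 livers, as it did for Chac1. Cdkn1a, a cell cycle inhibitor, was at 65.3, 54.6, 49.7 and 209 CPM in AAV-Null 21 to 24 and at 147 to 278 CPM in AAV-H19 livers (log2 change 1.31 ± 0.46, SE, edgeR adjusted p = 0.0883). Got1, the cytosolic aspartate aminotransferase gene, was at 155, 121, 164 and 363 CPM and at 260 to 596 CPM (1.14 ± 0.37, edgeR adjusted p = 0.0695). Slc7a2, a transporter of cationic amino acids, was at 131, 60.5, 127 and 313 CPM and at 172 to 615 CPM (1.59 ± 0.52, edgeR adjusted p = 0.0708). In each the groups overlapped through AAV-Null 24, and none passed over all 8 libraries.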
